A study of Mus musculus with 9 samples.

Results

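The genes described here are 10 immediate-early genes of the mouse: the zinc finger transcription factors Egr1, Egr2, Egr3 and Egr4, the immediate early response genes Ier2 and Ier3, the orphan nuclear receptor Nr4a1, the Krüppel-like factors Klf4 and Klf6, and the antiproliferative gene Btg2. They were taken by name, as a group of EGR, KLF and other immediate-early genes outside the AP-1 family, from the 47729 gene identifiers of the count table. All 10 were present and none overlapped another gene of the GENCODE annotation. Immediate-early genes are transcribed within minutes of a growth factor, calcium or stress signal, from transcription factors already present in the cell. Serum response factor with its ETS partners, downstream of ERK, and CREB, downstream of calcium and cyclic AMP, are the best known of these. In the retina, EGR1 is known for its response to light and image quality in amacrine cells of chick and mouse, and KLF4 for restraining axon growth of mouse ganglion cells.

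The study sequenced RNA of whole retinas in 9 bulk libraries. The Yap CKO group (3 libraries) carried floxed Yap alleles together with Rax-CreERT2, an inducible Cre that the labels call specific to Müller cells, which are retinal glia. The control group (3 libraries) carried the floxed Yap alleles without Cre, although the genotype entry of its samples also reads Yap CKO. Both groups received 4-hydroxytamoxifen at P10, were examined at P60, and carry the letters MNU in their library names, a word for which the labels describe no treatment. The C57 group (3 libraries) was wild type at P30, with no tamoxifen named, and came from an earlier series. The strain background was C57Bl6/J. The labels give 1 retina for each P60 library, but nothing states that the retinas of a group came from separate animals, so p-values measure the spread between these samples, which may be technical in part.

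Depth was 34739679 to 37629264 counts in the P60 libraries and 13760765 to 16808499 in the C57 libraries. Yap1 had 15.3, 21.5 and 24.3 CPM (read counts scaled to library size, with TMM factors) in Yap CKO libraries 1, 2 and 3, against 67.4, 61.0 and 57.6 CPM in the controls (log2 fold change -1.60, adjusted p = 0.0327, edgeR). The C57 libraries had 23.4, 25.1 and 30.4 CPM of Yap1. By edgeR, Yap CKO overlapped C57 (log2 fold change -0.41, adjusted p = 0.126), and control was higher than C57 (1.20, adjusted p = 0.000348). Rod markers were detected in every library, yet their level, the mean log2(CPM + 1) of 12 genes, was 5.76 to 9.77 in Yap CKO and 7.45 to 9.64 in control libraries, against 12.01 to 12.15 in C57. The level of 8 reactive glia markers was 8.23 to 8.44 in Yap CKO and 8.16 to 8.34 in control libraries, against 3.50 to 3.74 in C57. Library Yap CKO 3 stood apart, with the lowest rod level and with a lens marker level of 5.27, against 0.408 to 1.39 in the other 8. Xist was expressed in Yap CKO 1 and 2, C57 1 and the unnumbered C57 library, and Y-linked genes in the other 5, so sex was not balanced between the groups.

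RefSeq promoter windows on GRCm38.p6, which run from 250 bases before the start to 50 after it, were found for 7 of the 10 genes (Egr2, Egr4, Ier3, Nr4a1, Klf4, Klf6 and Btg2). Egr2 had 5 windows, and each of the others had 1. Both strands were searched for the CArG box bound by serum response factor, the full CREB site TGACGTCA and its shorter form TGACG, the EGR motifs GCGTGGGCG and GCGGGGGCG, the ETS core CCGGAA, and TATAAA. The stretches printed are those of 4 genes on which the results turn. On GRCm38 these genes lie at chromosome 10, 67535475 to 67542188 (Egr2, plus strand), chromosome 4, 55527143 to 55532466 (Klf4, minus strand), chromosome 15, 101254269 to 101274795 (Nr4a1, plus strand) and chromosome 1, 134075170 to 134079120 (Btg2, minus strand). Egr2 is shown for its difference from C57, Klf4 for its difference between the P60 groups, and Nr4a1 and Btg2 for following the rod level. Capitals mark the motifs, and CGTCA and CGCCCCCGC are motifs read on the opposite strand; TTCCGGAA is CCGGAA overlapping itself on both strands. All stretches lie upstream of a RefSeq start and outside annotated exons.
Egr2, chr10:67537749-67537828, plus strand: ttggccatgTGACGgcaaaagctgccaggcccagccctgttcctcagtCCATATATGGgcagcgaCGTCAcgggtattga
Egr2, chr10:67537426-67537530, plus strand: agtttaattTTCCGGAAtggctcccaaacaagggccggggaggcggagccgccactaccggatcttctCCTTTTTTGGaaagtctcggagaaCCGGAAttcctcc
Klf4, chr4:55532651-55532715, minus strand: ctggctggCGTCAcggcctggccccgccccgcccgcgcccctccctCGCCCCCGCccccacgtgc
Nr4a1, chr15:101266766-101266825, plus strand: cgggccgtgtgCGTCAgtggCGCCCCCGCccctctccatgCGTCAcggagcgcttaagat
Btg2, chr1:134079296-134079345, minus strand: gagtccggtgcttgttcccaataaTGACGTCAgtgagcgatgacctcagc

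The CArG box was held by Egr2 alone among the 7 genes, at 2 places (CCATATATGG and CCTTTTTTGG), and by 1.63% of the 32851 mouse windows of the same length. The full CREB site was held by Btg2 alone, where it contains the shorter TGACG on both strands, and by 1.79% of all windows. TGACG was held by Egr2, Egr4, Nr4a1, Klf4 and Btg2, and by 20.8% of all windows. GCGGGGGCG was held by Nr4a1 and Klf4, and by 2.91% of all windows, while GCGTGGGCG was held by none of the 7 genes and by 0.612% of all windows. CCGGAA was held by Egr2 and Nr4a1, and by 14.9% of all windows. TATAAA was held by none of the 7 genes and by 13.6% of all windows, and the Ier3 and Klf6 windows held none of the motifs searched. Counted over 27025 genes instead of windows, the shares were 1.81% (CArG box), 2.03% (TGACGTCA), 23% (TGACG), 3.31% (GCGGGGGCG), 0.707% (GCGTGGGCG), 16.7% (CCGGAA) and 15.7% (TATAAA). The matches describe letters in a window and are not measurements of binding.

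Levels of different genes were compared as CPM per kilobase of exon. In the Yap CKO libraries Ier3 was highest, at a mean of 50.8 CPM per kb, and did not overlap the next gene. Egr1 (31.4), Btg2 (29.6), Klf6 (19.4) and Ier2 (19.2 CPM per kb) followed, each overlapping its neighbour in the order. Nr4a1 (6.40) and Egr2 (5.32) came next and overlapped each other, then Klf4 (1.30), and last Egr3 and Egr4, at 0.320 CPM per kb each. In the controls the order was Ier3 (53.8), Egr1 (34.5), Btg2 (27.8), Klf6 (24.7), Ier2 (19.1), Egr2 (8.23), Nr4a1 (6.77), Klf4 (2.35), Egr3 (0.560) and Egr4 (0.220 CPM per kb), where only Btg2 with Klf6 and Egr2 with Nr4a1 overlapped. In C57 retinas the order differed: Btg2 (28.1) and Ier3 (25.6) overlapped at the top, Klf6 stood at 8.84, and Egr1 (4.48), Ier2 (4.31) and Nr4a1 (4.1 CPM per kb) overlapped below it. Klf4 (0.924), Egr4 (0.141), Egr3 (0.0223) and Egr2 (0.00707 CPM per kb) closed the C57 order, where Egr3 and Egr2 overlapped, from 4 reads and 1 read in all. Egr2 held rank 7 in Yap CKO and 6 in control. Among the EGR factors, taken per length, Egr1 made up 76.7% to 88.3% in Yap CKO and 72.7% to 83.0% in control libraries, against 93.3% to 97.6% in C57.

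**Figure D1:**
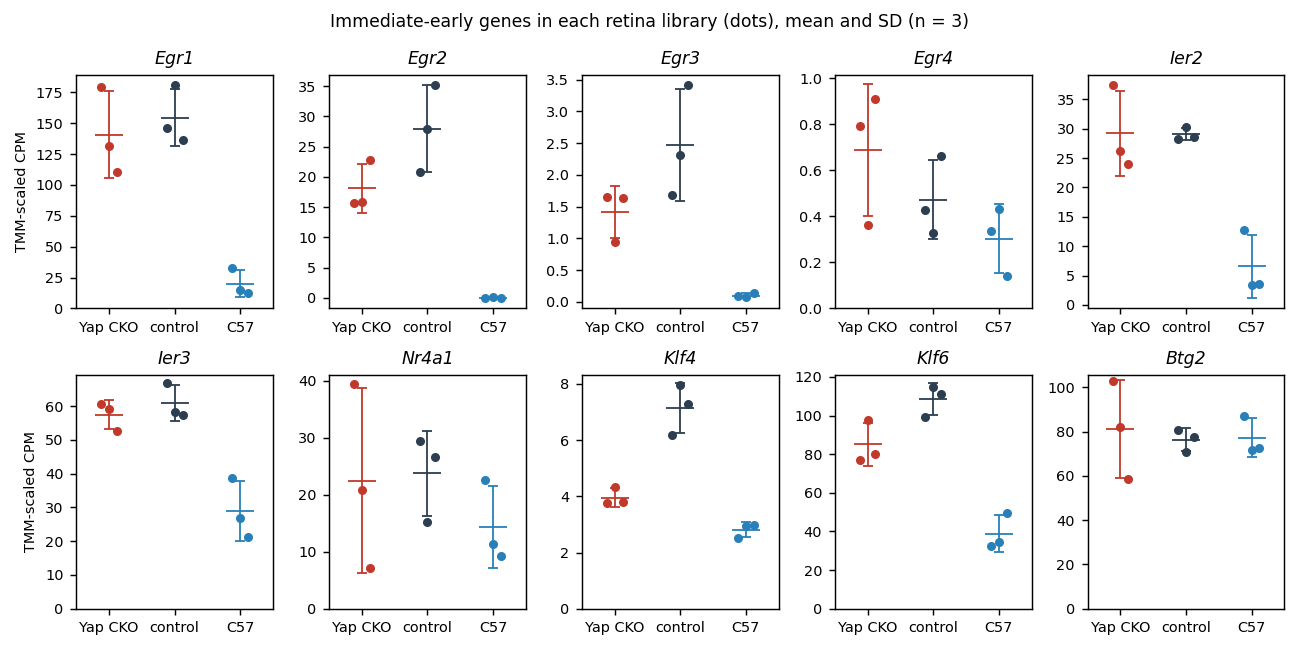
TMM-scaled CPM (linear axis) of the 10 genes in each of the 9 libraries (dots), with the mean and SD of each group (n = 3). For Egr2, the 3 C57 libraries sit at or next to 0, and all Yap CKO and control libraries lie between 15.6 and 35.2 CPM. For Btg2 the 3 groups overlap.

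The first comparison asked what loss of Yap from Müller glia changed at P60. None of the 10 immediate-early genes passed the threshold (adjusted p under 0.05 over the 16539 genes tested), where 0.2% of all genes did. Klf4 came nearest, with a mean of 3.96 ± 0.34 CPM in Yap CKO and 7.15 ± 0.90 CPM in control libraries (SD, n = 3 each), which is 1.81-fold lower. Klf4, Klf6 and Egr3 were lower in every Yap CKO library than in every control library, 3 of 10 genes, against 12.1% of all genes tested that were lower without overlap. Without adjustment, 4 of the 10 had a p under 0.05 in the edgeR fit, all lower (Klf4, Klf6, Egr2 and Egr3), where 9.25% of all genes were lower at that p. This count was 1 without control 2, 2 without control 3 or without Yap CKO 2, and 5 without Yap CKO 1. With adjustment, DESeq2 called 1 (Klf4), where it called 919 of all 16539 genes, and limma-voom called 0. The median log2 fold change of the 10 genes was -0.11, beside 0.01 for all genes tested, and ran from -0.32 without Yap CKO 1 to -0.0061 without Yap CKO 3. In bulk retina, fewer cells of a type and less RNA per cell cannot be told apart. Sex differed in part between the groups: Y-linked genes were expressed in every control library but, among the Yap CKO libraries, only in Yap CKO 3. The part of sex was not tested.

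Klf4, a zinc finger factor that restrains proliferation in many epithelia and is also one of the reprogramming factors, had 3.75, 4.35 and 3.78 CPM in Yap CKO libraries 1, 2 and 3, against 6.20, 7.97 and 7.29 CPM in control libraries 1, 2 and 3. The highest Yap CKO library lay below the lowest control. The log2 fold change was -0.85 (95% interval -1.19 to -0.52, adjusted p = 0.0676, edgeR). Klf4 passed with no filter on low counts (adjusted p = 0.0117), with DESeq2 (adjusted p = 0.000134) and without library Yap CKO 3 (adjusted p = 0.0272, edgeR), and its adjusted p ran from 0.000134 to 0.252 over all alternatives. In the authors' deposited table, Klf4 has a log2 fold change of -0.85 with an adjusted p of 0.0103.

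Klf6, a more abundant factor of the same family, had 77.2, 97.9 and 79.9 CPM in Yap CKO, against 99.2, 115 and 111 CPM in control libraries. Its groups were separated by a small gap, with Yap CKO 2 just under control 1. The log2 fold change was -0.35 (95% interval -0.61 to -0.09, adjusted p = 0.168, edgeR). Of 8 ciliary epithelium markers, 0 passed the threshold, 7 had negative fold changes and 3 were lower without overlap (12.1% over all genes tested). Their summed level was 73.8 to 87.9 CPM in Yap CKO and 83.6 to 115 CPM in control libraries, which overlap, and none of the 8 was at 0 throughout. Of 9 Müller glia markers, likewise 0 passed, 7 had negative fold changes, 2 were lower and 1 higher without overlap, and their summed level was 4640.1 to 5729 CPM in Yap CKO and 4505 to 5457 CPM in control libraries. The part of either list in the Klf4 and Klf6 values was not tested.

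Egr1, the most abundant EGR factor, had 179.7, 132 and 111 CPM in Yap CKO, against 146, 181 and 136 CPM in control libraries. The ranges overlapped, with Yap CKO 3 lowest and control 2 highest, and the log2 fold change of -0.14 had an interval of -0.61 to 0.33 (adjusted p = 0.778, edgeR). Egr2, which is needed for hindbrain patterning and peripheral myelination, had 15.6, 15.9 and 22.7 CPM in Yap CKO, against 20.8, 28.0 and 35.2 CPM in control libraries. Library Yap CKO 3 overlapped control 1, and the log2 fold change was -0.63 (95% interval -1.20 to -0.06, adjusted p = 0.239, edgeR). Egr3, a partner of Egr2 in lymphocytes and known for its role in muscle spindles, had 1.66, 0.937 and 1.64 CPM in Yap CKO, against 1.68, 2.31 and 3.41 CPM in control libraries. The groups did not overlap, but Yap CKO 1 and control 1 were almost level, and the log2 fold change was -0.81 (95% interval -1.56 to -0.06, adjusted p = 0.248, edgeR). Egr4 stayed under 1 CPM in every library. It had 0.790, 0.364 and 0.908 CPM in Yap CKO, against 0.427, 0.327 and 0.663 CPM in control libraries, with overlap (log2 fold change 0.54, 95% interval -0.41 to 1.48, adjusted p = 0.539, edgeR). The authors' deposited table lists Egr2 at -0.62 (adjusted p = 0.301) and Egr3 at -0.80 (adjusted p = 0.508), and these with Klf4 are the only 3 of the 10 genes among its 305. The smallest absolute log2 fold change of any gene in that table for this comparison is 0.59.

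The IER genes overlapped between the P60 groups. Ier2, a nuclear protein induced with the EGR genes, had 37.4, 26.2 and 23.9 CPM in Yap CKO, against 28.3, 30.2 and 28.6 CPM in control libraries. The Yap CKO libraries lay on both sides of the tightly spaced controls, and the log2 fold change was 0.01 (95% interval -0.37 to 0.38, adjusted p = 0.991, edgeR), with a sign that turned under other settings. Ier3, known for modulating apoptosis and ERK signalling, had 60.6, 59.3 and 52.6 CPM in Yap CKO, against 66.9, 58.4 and 57.4 CPM in control libraries. Its ranges overlapped over most of their length, with a log2 fold change of -0.08 (95% interval -0.27 to 0.11, adjusted p = 0.662, edgeR).

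**Figure D2:**
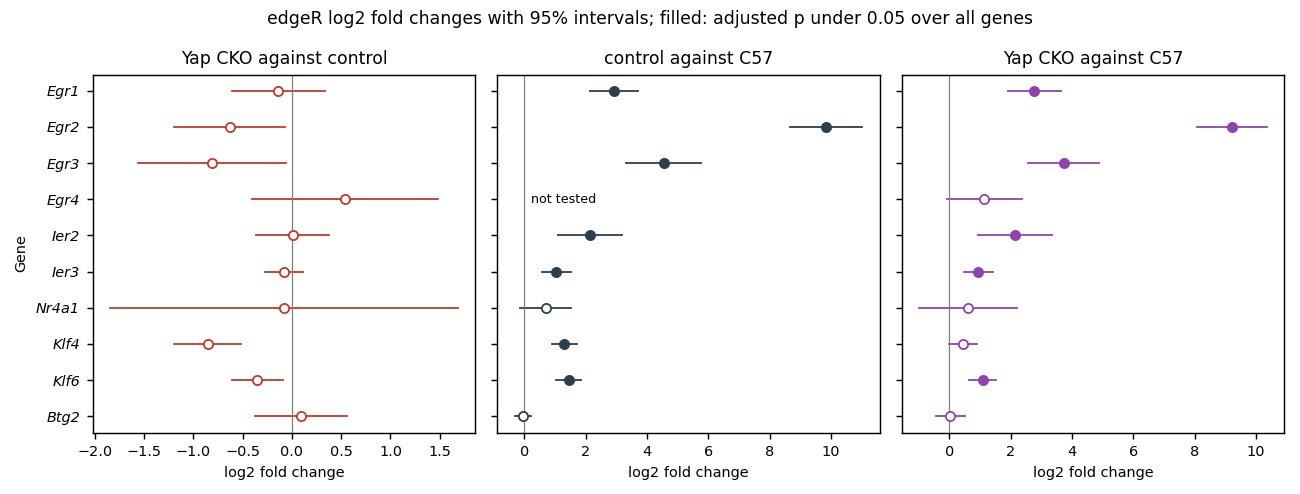
edgeR log2 fold change of each gene (points) with its 95% interval (lines) in the 3 comparisons, filled where the adjusted p was under 0.05. No point is filled for Yap CKO against control, 7 are filled for control against C57 and 6 for Yap CKO against C57. Klf4 has the Yap CKO against control interval farthest below 0 (-1.19 to -0.52), and Nr4a1 the widest (-1.84 to 1.68).

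Nr4a1, an orphan nuclear receptor induced by membrane depolarisation and by growth factors, varied more within a group than between the groups. It had 39.4, 20.9 and 7.11 CPM in Yap CKO, a 5.54-fold range, against 29.4, 15.3 and 26.6 CPM in control libraries. The log2 fold change was -0.08 with an interval of -1.84 to 1.68 (adjusted p = 0.973, edgeR). Btg2, which slows the cell cycle and takes part in mRNA deadenylation, had 103, 81.9 and 58.6 CPM in Yap CKO, against 80.8, 70.6 and 77.7 CPM in control libraries. The Yap CKO libraries lay above, among and below the controls, and the log2 fold change was 0.09 (95% interval -0.38 to 0.56, adjusted p = 0.867, edgeR).

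Both genes followed the rod marker level across the 6 P60 libraries, a relation looked for after the values had been seen. The rod level was 9.77, 8.88 and 5.76 in Yap CKO 1, 2 and 3, and 9.64, 7.45 and 8.67 in control 1, 2 and 3. The 12 rod markers summed to 1113 to 23637 CPM in Yap CKO and 4299 to 22331 CPM in control libraries, with none at 0. Within each group, Nr4a1 and Btg2 had the same order of libraries as the rod level, and with 3 libraries a group no coefficient within groups was computed. For Nr4a1, Pearson's r was 0.974 and Spearman's rho 0.943 (n = 6, exact two-sided permutation p = 0.00417 and 0.0167, adjusted over the 10 genes 0.0208 and 0.0833). For Btg2, r was 0.915 and rho 0.943 (n = 6, with the same exact permutation and adjusted p-values). Without the libraries farthest from the median rod level (Yap CKO 3 and control 2), r over the remaining 4 libraries was 0.775 for Nr4a1 and 0.694 for Btg2, while Egr1 (0.818) and Ier3 (0.726) reached like values, so over these 4 libraries the relation did not set Nr4a1 and Btg2 apart. Ier3 had an r of 0.839 (n = 6, exact permutation p = 0.0444, adjusted 0.148), and the other 7 genes lay between -0.365 for Egr2 and 0.636 for Ier2, all with adjusted p above that of Ier3. Of 11705 genes whose P60 mean reached 5 CPM, 1.73% had an r with the rod level at or above that of Nr4a1 and 5.35% at or above that of Btg2. All points share the library and its composition, and library Yap CKO 3, which also held lens transcripts, is the lowest for rods, Nr4a1 and Btg2. The relation did not extend to the C57 libraries, whose rod level was higher, at 12.01 to 12.15. They had 9.23 to 22.6 CPM of Nr4a1 and 71.7 to 87.2 CPM of Btg2, within the P60 ranges.

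**Figure D3:**
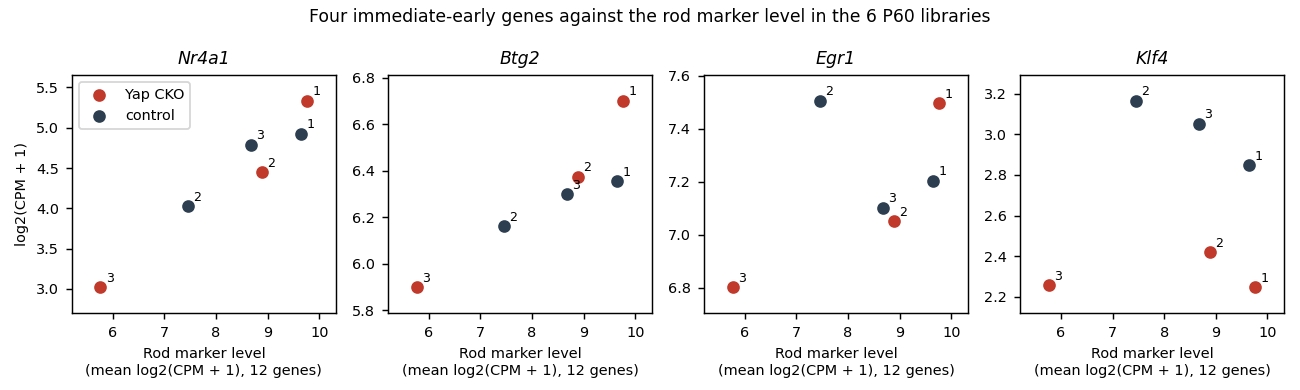
Level of Nr4a1, Btg2, Egr1 and Klf4 as log2(CPM + 1) against the rod marker level (mean log2(CPM + 1) of 12 genes) in the 6 P60 libraries, numbered within the group. Nr4a1 and Btg2 climb with the rod level (r = 0.974 and 0.915), and for Klf4 the Yap CKO libraries lie below the controls at high and low rod level alike.

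Control retinas at P60 were next set against wild-type C57 retinas at P30. Egr1, Egr2, Egr3, Ier2, Ier3, Klf4 and Klf6 were higher in control, 7 of the 9 genes tested, and none was lower, where 23.1% of the 15820 genes tested were higher and 45.5% changed in either direction. The lowest of the 7 differences was 2.06-fold, for Ier3, and the highest was that of Egr2. The libraries of the groups did not overlap for these 7 genes, where 32.3% of all genes tested were higher without overlap. Nr4a1 and Btg2 did not pass, and Egr4 was too low to be tested. The median log2 fold change of the 9 genes was 1.45, beside 0.03 for all genes tested. Age, the floxed alleles, 4-hydroxytamoxifen, whatever MNU stands for, the series and its depth all differ between these groups and cannot be told apart. Sex was not balanced between them either, with Y-linked genes expressed in every control library but only in C57 2 of the C57 libraries.

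Egr2 was almost absent from C57 retinas: 0, 1 and 0 reads in C57 1, C57 2 and the unnumbered C57 library, against 777, 1112 and 1433 reads in the controls. From the summed 3322 and 1 counts, the ratio of control to C57 CPM was 1132, with an exact 95% counting interval of 203 to 44740.3, which covers counting error only (edgeR adjusted p = 1.74e-05). Egr3 had 0.0838, 0.0721 and 0.139 CPM in C57, from 4 reads in all against 294 in the controls, a ratio of 25.1 (exact 95% counting interval 9.68 to 92.6, edgeR adjusted p = 0.000408). Egr1 had a mean of 155 ± 23.3 CPM in control, against 32.4, 15 and 12.8 CPM in the C57 libraries, where C57 1 was the high one (log2 fold change 2.92, SE 0.34, adjusted p = 0.000438, edgeR). Every control library lay above every C57 library for these 3 EGR factors, whereas Egr4 had 56 counts in control and 12 in C57 (ratio of CPM 1.59, exact 95% counting interval 0.843 to 3.26).

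Ier2 had a mean of 29.0 ± 1.04 CPM in control, against 12.7, 3.39 and 3.54 CPM in C57, again with C57 1 highest (log2 fold change 2.14, SE 0.45, adjusted p = 0.00642, edgeR, and 3.03 without C57 1). Ier3 had a mean of 60.9 ± 5.24 CPM in control, against 38.7, 26.8 and 21.4 CPM in C57 (log2 fold change 1.04, SE 0.21, adjusted p = 0.00471, edgeR). Both groups stayed apart for both genes. Klf4 had 2.51, 2.96 and 2.98 CPM in C57, under every control library (log2 fold change 1.31, SE 0.18, adjusted p = 0.000878, edgeR). Klf6 had 32.3, 34.5 and 49.7 CPM in C57 (log2 fold change 1.45, SE 0.18, adjusted p = 0.000534, edgeR), and even its highest C57 library lay below the lowest control by a wide margin.

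Nr4a1 had 22.6, 11.3 and 9.23 CPM in C57, which overlapped the controls (log2 fold change 0.70, 95% interval -0.14 to 1.53, adjusted p = 0.151, edgeR). Without library C57 1 it passed, at a log2 fold change of 1.18 (adjusted p = 0.0153, edgeR). Btg2 overlapped too, at 87.2, 71.7 and 72.5 CPM in C57 (log2 fold change -0.05, 95% interval -0.32 to 0.23, adjusted p = 0.763, edgeR). Markers of several cell types also differed between control and C57, rods and reactive glia among them. All 8 reactive glia markers were higher in control, summing to 3157 to 3372 CPM, against 219 to 309 CPM in C57. All 12 rod markers were lower in control, summing to 4299 to 22331 CPM, against 104434 to 123906 CPM in C57. No marker of either list was at 0, and the part of either in these results was not tested.

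Yap CKO retinas set against the same C57 libraries gave 6 of 10 genes higher (Egr1, Egr2, Egr3, Ier2, Ier3 and Klf6) and none lower, where 20.3% of the 15840 genes tested were higher and 40.5% changed in either direction. The median log2 fold change of the 10 genes was 1.12, beside 0.02 for all genes tested. Because the C57 libraries are shared with the control comparison, the values stand side by side and their likeness is not a result. Egr2 had 2126 counts in Yap CKO, against 1 in C57, a ratio of CPM of 729 (exact 95% counting interval 131 to 28789.9, edgeR adjusted p = 1.57e-05). Egr3 had 166 counts in Yap CKO, against 4 in C57, a ratio of 14.2 (exact 95% counting interval 5.45 to 52.8, edgeR adjusted p = 0.00086). By edgeR, the log2 fold changes were 2.77 for Egr1 (SE 0.37, adjusted p = 0.00103), 2.13 for Ier2 (SE 0.51, adjusted p = 0.0153, and 3.03 without C57 1), 0.95 for Ier3 (SE 0.21, adjusted p = 0.00818) and 1.09 for Klf6 (SE 0.19, adjusted p = 0.00281). Ier2 no longer passed without the unnumbered C57 library (adjusted p = 0.0848, edgeR) or with no count filter (adjusted p = 0.0855).

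Klf4 passed in control against C57 and not in Yap CKO against C57. Every Yap CKO library lay above every C57 library, at 3.75 to 4.35 CPM against 2.51 to 2.98 CPM, as did 30.3% of all genes tested, but its log2 fold change of 0.44 did not pass (95% interval -0.02 to 0.90, adjusted p = 0.110, edgeR). The direct test of Klf4 between the P60 groups gave an adjusted p of 0.0676 (edgeR). Egr4 (1.15, 95% interval -0.09 to 2.38, adjusted p = 0.122), Nr4a1 (0.61, -0.98 to 2.20, adjusted p = 0.494) and Btg2 (0.03, -0.44 to 0.50, adjusted p = 0.914) did not pass by edgeR. For 7 of the 10 genes the Yap CKO mean lay between those of control and C57, and for 3 (Egr4, Ier2 and Btg2) it lay above both. For these 7 both P60 means were above C57, so the place only restates the negative sign of Yap CKO against control. Small differences count there too, such as Ier3 and Nr4a1 at -0.08 on the log2 scale. The share over all genes was not computed.

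A second list held 38 further immediate-early genes, among them the AP-1 genes. Klf2, Klf10, Nr4a2 and Nr4a3 stood on it and again on the lists of relatives described below, so those counts share genes. Between Yap CKO and control, 0 of the 38 passed in the edgeR fit (limma-voom likewise called 0), and without adjustment 14 were lower (9.25% over all genes) and 1 higher at that threshold. Of the 38, 27 had a negative fold change, the median was -0.14, and 11 were lower without overlap (12.1% over all genes). Ccn1, a secreted matrix protein and a textbook target of YAP, had 22.0, 20.97 and 29.3 CPM in Yap CKO, against 47.6, 73.0 and 53.6 CPM in control libraries (log2 fold change -1.27, adjusted p = 0.0714, edgeR). Maff, a small MAF protein, had 14.0, 11.7 and 11.7 CPM in Yap CKO, against 19.5, 19.2 and 21.5 CPM in control libraries (log2 fold change -0.69, adjusted p = 0.0580, edgeR). Pim1, a kinase induced by STAT signalling, had a log2 fold change of -0.50 and Zfp36l1, an mRNA decay factor, one of -0.53 (adjusted p = 0.0746 each, edgeR). The groups did not overlap for any of these 4 genes. Ccn2, another YAP target on the list, went the other way, with overlap. Its means were 23.7 CPM in Yap CKO and 17.5 CPM in control libraries (log2 fold change 0.44, adjusted p = 0.362, edgeR). Over all lists of related and partner genes together, 66 genes were tested, of which edgeR called 0 and DESeq2 called 9: Ccn1, Maff, Zfp36l1, Pim1, Klf10, Myc, Arc and Ier5 as lower, and Klf2 as higher. Of all 16539 genes tested, DESeq2 called 919. Without library Yap CKO 3, edgeR called 8 of the 66, and 1473 of all 16809 genes tested.

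Against C57, 31 of the 37 genes tested from that list were higher in control and 1 was lower (Sgk1), with a median log2 fold change of 2.29, where 23.1% of all genes tested were higher and their median was 0.03. In Yap CKO, 29 of 37 were higher and 0 lower, with a median of 1.54, where 20.3% of all genes were higher and their median was 0.02. Myc, a driver of growth, had 46.5, 66.3 and 53.1 CPM in control, against 0.419, 0.288 and 0.416 CPM in C57 (log2 fold change 7.16, adjusted p = 5.06e-06, edgeR). Cebpd (6.0), an acute-phase regulator, Gadd45b (5.92), a stress sensor, and Junb (5.88), an AP-1 subunit, also passed (adjusted p = 6.92e-06, 6.16e-06 and 0.000326, edgeR). Cebpd also belongs to the reactive glia markers.

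**Figure D4:**
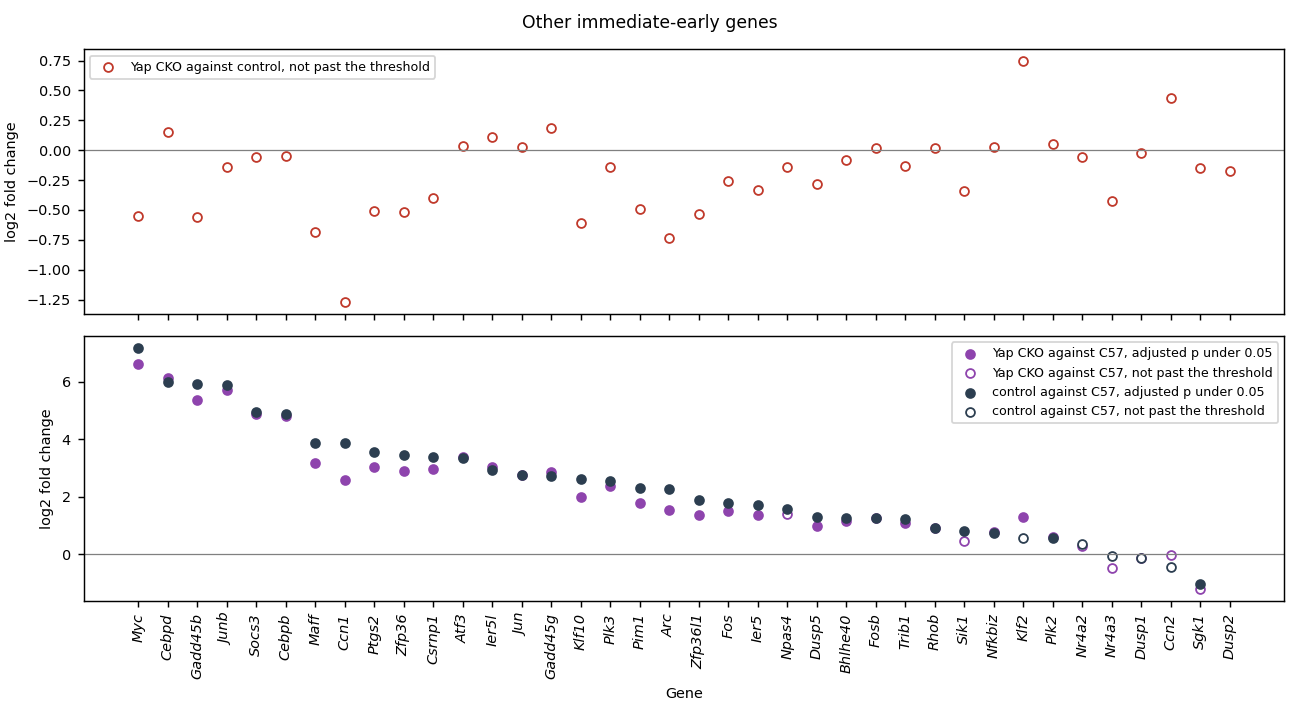
edgeR log2 fold changes of the 38 further immediate-early genes, ordered by control against C57, with Yap CKO against control in the upper panel and both comparisons with C57 in the lower. In the upper panel no gene passed and 27 of 38 lie below 0, Ccn1 lowest at -1.27. In the lower panel filled points passed, from Myc at 7.16 downward, and Dusp2 has no point because it was not tested there.

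The other Krüppel-like factors did not share a common direction. Between Yap CKO and control, edgeR called 0 of 12 tested (1 higher and 2 lower without adjustment) and limma-voom 0, while DESeq2 called Klf10 and Klf2 (919 of all 16539 genes). Without library Yap CKO 3, edgeR called Klf2 (log2 fold change 0.72), Klf3 (-0.39) and Klf13 (-0.28), with adjusted p of 0.0352, 0.0358 and 0.0323. That fit called 1473 of all 16809 genes tested. Klf10 had 29.3, 33.1 and 33.8 CPM in Yap CKO, against 40.2, 51.7 and 54.6 CPM in control libraries (log2 fold change -0.61, adjusted p = 0.0911, edgeR). Klf2, a flow-sensitive factor of endothelium, had 4.64, 5.05 and 5.09 CPM in Yap CKO, against 3.26, 2.54 and 3.04 CPM in control libraries (log2 fold change 0.74, adjusted p = 0.0775, edgeR), so Klf2 and Klf10 differed without overlap in opposite directions. Of 6 endothelial markers, 0 passed, 5 had positive fold changes and 1 was lower without overlap (12.1% over all genes tested). Their summed levels overlapped, at 448, 430 and 728 CPM in Yap CKO 1, 2 and 3 and 490.1 to 510.1 CPM in control libraries. The part of endothelium in the Klf2 values was not tested. Against C57, 6 of 11 were higher and 2 lower in control, and 5 of 12 higher and 2 lower in Yap CKO, where 45.5% and 40.5% of all genes tested changed in either direction. The 2 counts rest on different genes, because Klf5 passed the count filter against C57 only in Yap CKO, where it is 1 of the 5. Its mean was 0.605 CPM in Yap CKO, 0.488 CPM in control and 0 in C57. In control, Klf10 (2.61), Klf11 (1.07) and Klf16 (0.74) rose and Klf12 (-0.87) fell on the log2 scale, with adjusted p of 3.05e-05, 0.000838, 0.0149 and 0.0026 by edgeR.

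Among the partners of these genes, none passed between Yap CKO and control. Nab1 and Nab2 are co-repressors that bind EGR factors, and Nab2 is itself an EGR target. Nab2 had 55.5, 53.1 and 53.4 CPM in Yap CKO, against 58.1, 62.4 and 61.9 CPM in control libraries (log2 fold change -0.17, adjusted p = 0.217, edgeR), and 19.2, 11.4 and 17.8 CPM in C57. It was higher in control than in C57 (log2 fold change 1.89, adjusted p = 0.000226, edgeR), and Nab1 did not pass (0.30, adjusted p = 0.195). Of serum response factor and its 5 cofactors listed, 4 rose in both P60 groups against C57, where 23.1% of all genes tested were higher in control and 20.3% in Yap CKO. In control, by edgeR, these were Srf (1.00, adjusted p = 0.00783), Elk3 (1.07, adjusted p = 0.000949), Elk4 (1.00, adjusted p = 0.00131) and Mrtfb (0.68, adjusted p = 0.00405). Of 6 CREB factors, Crem alone passed in control against C57, at 0.84 (adjusted p = 0.00497, edgeR), and Creb1 alone passed in Yap CKO against C57, at -0.70 (adjusted p = 0.0391, edgeR). Of all genes tested, 45.5% changed in either direction in control and 40.5% in Yap CKO. The relatives of Nr4a1, Nr4a2 and Nr4a3, passed in none of the 3 comparisons. Of 4 tested relatives of Btg2, Tob2 fell in control against C57, by 1.09 on the log2 scale (adjusted p = 0.00276, edgeR), and 2 fell in Yap CKO against C57 (Tob1 and Tob2). Over all genes, 3547 of the 15820 tested were lower in control and 3202 of the 15840 tested were lower in Yap CKO.

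Over the 6 P60 libraries, the genes whose log2(CPM + 1) was most like that of Egr1, among the same 11705 genes, were Zfp260 (Pearson's r = 0.986), Unk (0.982), Apool (0.979), Tmem128 (0.978) and Tcea1 (0.963). Egr3 and Egr4 lay under the 5 CPM limit and were not compared, and none of the other immediate-early genes described here was among these 5. The closest of them to Egr1 was Ier2 (r = 0.876). The coefficients are a description of 6 libraries that share depth and composition, and carry no p-value.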

How the data were processed

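The authors deposited whole-number read counts per Ensembl gene, not normalized, for 9 whole-retina libraries made from total RNA with a directional TruSeq kit, per the labels. HISAT2 2.1.0, featureCounts and GRCm38 are listed, with edgeR, in the submitters' processing notes. For the strand setting and annotation release, nothing is stated in those notes. The authors' deposited comparison table gives log2 fold changes and p-values for 305 genes. Its 9 columns of values per library were not used. One C57 count column carries a number that no sample description shares, and is called the unnumbered C57 library.

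Each comparison was fitted on its own 6 libraries with edgeR 4.0.16 (filterByExpr with minimum count 10 and minimum total 15, TMM, robust quasi-likelihood F-tests), in R 4.3.3. P-values were adjusted by Benjamini-Hochberg over all genes tested, and 0.05 was the threshold. Unless another tool is named, adjusted p-values are from this test. Printed CPM are TMM-scaled over all 9 libraries, so ratios of printed means can differ slightly from fitted fold changes. Gene positions and exon lengths are of the GENCODE annotation of GRCm38. The script was tested on simulated data. Pseudocount was 1 for log2(CPM + 1).

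The 10 genes, the other lists and the tests were chosen with earlier results of these data known. Named from each other list were up to 4 genes with the smallest p between Yap CKO and control and up to 4 with the greatest change among those that passed in control against C57. Not all of them are described. Between same-numbered Yap CKO and control libraries, deviations from the group means had correlations of 0.404, -0.0272 and 0.0449. So few values cannot exclude a pairing. The main fits did not pair the libraries, and the replicate block is given as an alternative. Alternatives were RLE scaling, no count filter, DESeq2 1.42.0, limma-voom (limma 3.58.1), all 9 libraries in one fit, bias-adjusted deviances, the replicate block, thinning of the P60 libraries to the C57 depth, and leaving out each library.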

Additional observations from a re-analysis of the deposited data

How the results depend on the processing

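For the 10 genes, the number called between Yap CKO and control was 0, and 1 (Klf4) with no count filter, with DESeq2 and without Yap CKO 3, with a range of 0 to 1 when 1 library was left out. Against C57 the counts stayed within 1.5 times of 7 in control and 6 in Yap CKO. Over all genes, Yap CKO against control gave 33 calls, and 15 with RLE scaling, 343 with no count filter, 919 with DESeq2, 16 with limma-voom, 60 with all 9 libraries in one fit and 15 with bias-adjusted deviances. Leaving out 1 library gave 0 to 1473 there, with 1473 without Yap CKO 3. For Yap CKO against C57 it gave 3905 to 8013, with 6419 from all 6. The related and partner genes, 0 between Yap CKO and control, numbered 5 with no count filter, 9 with DESeq2, 1 with all 9 libraries and 0 to 8 with 1 library left out.

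Between Yap CKO and control, the log2 fold change of Ier2 turned to -0.0027 with no count filter, -0.019 with limma-voom, -0.0187 with the replicate block and -0.044 with thinned P60 libraries, and that of Btg2 in Yap CKO against C57 to -6.96e-05 with limma-voom. With 1 library left out, values that changed sign ran from -0.348 to 0.0092 for Egr1, -0.21 to 0.13 for Ier2, -0.76 to 0.34 for Nr4a1 and -0.11 to 0.28 for Btg2 between Yap CKO and control. They ran from -0.0949 to 0.0495 for Btg2 in control against C57, -0.0712 to 1.08 for Nr4a1 and -0.17 to 0.23 for Btg2 in Yap CKO against C57. Without a count filter the median of all genes was 0.19 in control and 0.23 in Yap CKO against C57. The causes were not tested.

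The replicate block gave 0, 6 and 7 of the 10 genes called (45, 5850 and 5642 over all genes) in Yap CKO against control, control against C57 and Yap CKO against C57. Its fits with C57 used only numbers 1 and 2, which drops the unnumbered C57 library and the third P60 library. Under it Ier2 did not pass in control against C57 (2.03, adjusted p = 0.121) and Nr4a1 passed in Yap CKO against C57 (0.81, adjusted p = 0.00177, edgeR). With limma-voom and the block, the median log2 fold change of the 10 genes between Yap CKO and control was -0.25 and -0.22. With 12 reads of Egr4, 4 of Egr3 and 1 of Egr2 over the C57 libraries, depth limits what can be said of these genes there.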

Other observations

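Library C57 1 held higher values of several immediate-early genes than the other 2 C57 libraries. Beside the mean of those 2, its CPM was 3.68-fold for Ier2, 2.34-fold for Egr1, 2.20-fold for Nr4a1 and 1.61-fold for Ier3. On the second list the ratio was 8.06 for Junb (5.45, against 0.865 and 0.486 CPM), 5.49 for Cebpb, 2.55 for Gadd45g and 1.95 for Jun. Other genes were not higher there: the ratio was 0.846 for Klf4, 0.767 for Klf6, 0.849 for Fosb and 0.816 for Atf3. C57 1 was the highest of the 3 C57 libraries for 5 of the 10 genes and 22 of the 38 on the second list (57.9%), and for 40.0% of all 15820 genes tested. The unnumbered library was highest for 38.5% of all genes tested. The genes named here were picked out after their values were seen, and with 3 libraries no test was made.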
